A study of Homo sapiens with 8 samples.

Results

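The NCOR corepressor complex was examined through 5 of its subunit genes, NCOR1, HDAC3, TBL1X, TBL1XR1 and GPS2, out of 57992 genes in the count tables. They were chosen by their membership of the complex, with the difference of NCOR1 between A20 siRNA and control siRNA in these same samples already known. Their differences in that contrast are therefore given as a description. No p-value is printed for them, and statements that a fit passed or missed the threshold only describe that fit. All 5 passed the filter on low counts that left 13412 genes. RNAseq had been done on RKO, a human colon carcinoma cell line with intact beta-catenin signaling, transfected with a control siRNA (4 samples) or with an siRNA against A20 (4 samples), the ubiquitin-editing enzyme encoded by TNFAIP3. All 8 samples had received wnt3a at 50 ng/mL for 24 hours, so no sample shows the complex without wnt3a, and all came from this single cell line.

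The complex silences genes in the nucleus. NCOR1 is a large scaffold that is held at DNA by nuclear receptors without ligand and by other repressors, and it carries HDAC3, a histone deacetylase that needs the scaffold for its activity. TBL1X and TBL1XR1 are related WD-repeat proteins that bind histones and take part in the exchange of corepressors for coactivators, and both have also been linked to beta-catenin at wnt target genes, while GPS2 is a small subunit that binds the scaffold and the WD-repeat proteins and restrains JNK signaling. In the intestine, HDAC3 is known for its role in keeping the epithelium intact.

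The 5 genes lie on 4 chromosomes. Identifiers are those of the count tables, and positions are those of the same genes on GRCh38 in GENCODE 44, whose identifiers carry later versions. On that annotation NCOR1 (ENSG00000141027.20) spans chromosome 17 from 16029065 to 16218185 on the minus strand, HDAC3 (ENSG00000171720.9) chromosome 5 from 141620876 to 141636849 on the minus strand, and TBL1X (ENSG00000101849.15) chromosome X from 9463320 to 9741037 on the plus strand. TBL1XR1 (ENSG00000177565.16) spans chromosome 3 from 177019340 to 177228000 and GPS2 (ENSG00000132522.15) chromosome 17 from 7311324 to 7315564, both on the minus strand. They differ widely in size. The merged exons of NCOR1 came to 15.6 kb, longer than those of 95.4% of the tested genes, and those of TBL1X (13.9 kb) and TBL1XR1 (11.7 kb) were also long, against 4.61 kb for HDAC3, 3.09 kb for GPS2 and a median of 4.98 kb over all tested genes.

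Upstream sequence of 4 of the genes is shown because NCOR1 is the member whose level differed, HDAC3 is the enzyme, and TBL1X and TBL1XR1 are related adaptors with very different levels. Each is the longest stretch, within 250 bases upstream of the first start that RefSeq lists on GRCh38.p14, that lies in no annotated exon on either strand, written 5′ to 3′ along the gene with a searched motif in capitals. NCOR1 is chr17:16215555-16215653 (minus strand), HDAC3 is chr5:141636850-141636949 (minus strand), TBL1X is chrX:9463045-9463294 (plus strand) and TBL1XR1 is chr3:177197483-177197732 (minus strand). For GPS2, 0 of the 250 bases lay outside exons, and none is shown.
NCOR1: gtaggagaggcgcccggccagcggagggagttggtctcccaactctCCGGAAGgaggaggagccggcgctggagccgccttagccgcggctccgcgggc
HDAC3: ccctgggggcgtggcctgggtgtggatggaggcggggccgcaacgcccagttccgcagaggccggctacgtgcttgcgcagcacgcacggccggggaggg
TBL1X: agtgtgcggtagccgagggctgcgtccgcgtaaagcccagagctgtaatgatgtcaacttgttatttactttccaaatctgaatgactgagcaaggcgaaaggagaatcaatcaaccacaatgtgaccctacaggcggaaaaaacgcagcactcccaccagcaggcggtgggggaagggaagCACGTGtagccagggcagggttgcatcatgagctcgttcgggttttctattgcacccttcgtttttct
TBL1XR1: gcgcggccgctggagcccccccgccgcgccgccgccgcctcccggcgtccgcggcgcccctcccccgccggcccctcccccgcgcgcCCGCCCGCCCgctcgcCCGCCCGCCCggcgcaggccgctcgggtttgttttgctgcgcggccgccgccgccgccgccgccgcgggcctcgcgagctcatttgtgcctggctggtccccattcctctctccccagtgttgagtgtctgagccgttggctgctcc

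The capitals mark an ETS core (CCGGAAG) for NCOR1 and an E-box (CACGTG) for TBL1X. For TBL1XR1 they mark 4 SP and KLF boxes (GGGCGG, read on the opposite strand), which overlap in pairs. The HDAC3 stretch held no searched motif. Within the whole 300-base window around the first start, 250 bases before and 50 after it, NCOR1 also matched an AP-1 site (TGANTCA, N being any base) and a YY1 site (AGATGGCGG), HDAC3 matched 3 SP and KLF boxes, and GPS2 matched the ETS core. Over 35116 RefSeq promoters of the same length, searched on both strands, 10.3% held the ETS core, 45.0% the SP and KLF box, 7.26% the E-box, 7.71% the AP-1 site and 1.47% the YY1 site. The NFkB letters (GGANTTNCC, in 4.27% of promoters) and the TCF letters (CTTTGAT, in 2.62%) were found in none of the 8 RefSeq start windows of the 5 genes, and the NFY box (CCAAT, in 34.6%) only in the second window of NCOR1. In their second windows, TBL1X and TBL1XR1 matched the SP and KLF box, and TBL1XR1 also the AP-1 site. These matches describe the letters of the windows and no binding was measured.

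Total counts ran from 21226451 to 34194273 per sample, and a level of 3 counts corresponded to between 0.0875 and 0.141 CPM (counts brought to a shared depth with TMM factors). That floor reflects counting only, while all intervals come from the edgeR fit, which includes the spread between samples. TNFAIP3 checked the labels. It stood at 4.92, 5.83, 5.59 and 5.54 CPM in the control siRNA samples and at 3.47, 3.01, 3.40 and 3.43 CPM in the A20 siRNA samples, a fold of 0.610 (log2 fold change -0.71 ± 0.10 SE, n = 4 per group, adjusted p = 0.0026, edgeR). The knockdown was therefore partial at the RNA level. Of 8 intestinal epithelial markers 5 had a read, with a summed level of 140 to 152 CPM in control siRNA and 138 to 146 CPM in A20 siRNA, while the defining markers KRT20, CDH1 and CDX1 were at 0 in all samples. Markers of other cell types summed to 19.5 to 21.7 and 19.0 to 21.2 CPM for mesenchyme, where VIM carried the signal and DCN was at 0. They reached at most 1.44 CPM for blood (1 of 4 markers with a read, with PTPRC, CD3E and HBB at 0) and 0.0998 CPM for endothelium (2 of 3 with a read, with CDH5 at 0). Since these are bulk samples, fewer cells expressing a gene and less RNA per cell cannot be told apart.

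Of the 5 genes, 1 differed at an adjusted p under 0.05 (quasi-likelihood test of edgeR, adjusted after Benjamini and Hochberg over all tested genes), where 1.25% of all tested genes did, and nothing is read from this count because that contrast was known when the genes were chosen. That gene, NCOR1, was higher after A20 siRNA, as were 0.634% of the tested genes, and 0.611% were lower. NCOR1 was also the only member whose groups did not overlap, against 7.61% of the tested genes in either direction, 3.71% with A20 siRNA above and 3.9% with A20 siRNA below. The median log2 fold change was -0.0084 over the 5 members and 0.0027 over all tested genes. Among the 5, 2 had a positive and 3 a negative log2 fold change.

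**Figure D1:**
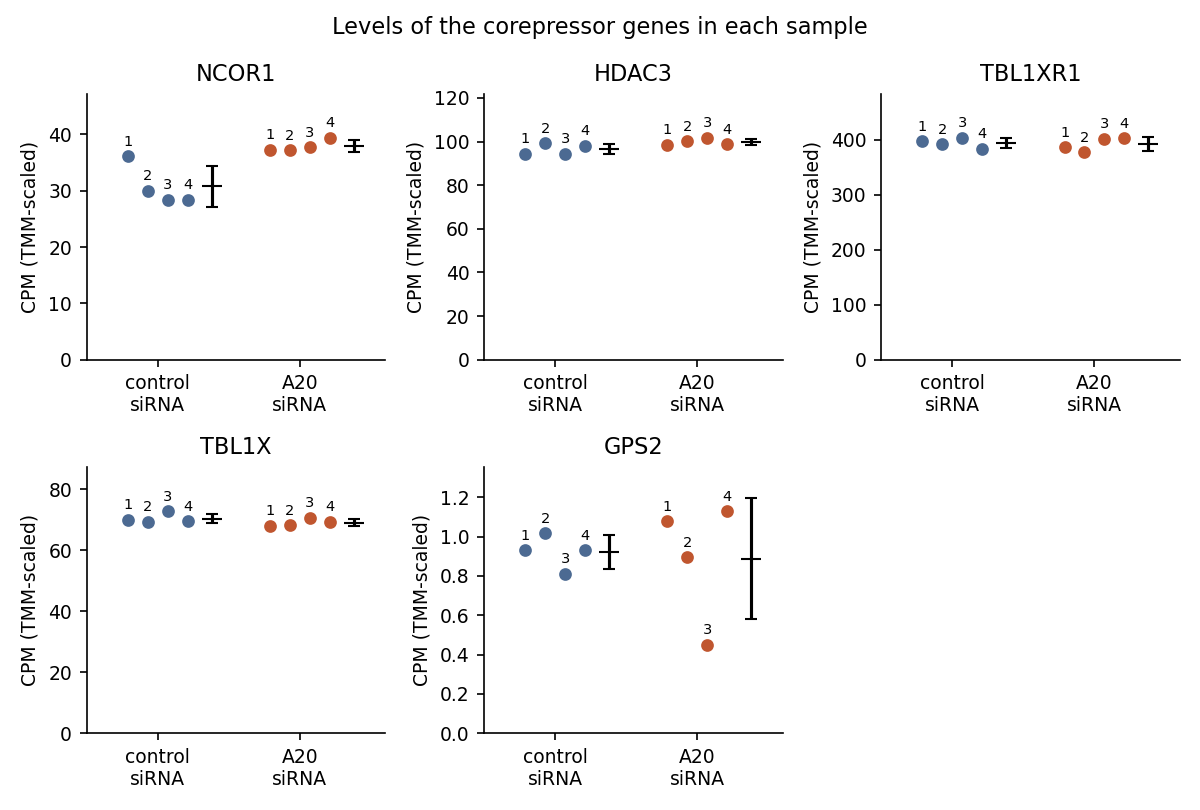
Level of each gene in each sample in CPM (linear axis from 0, TMM-scaled), with control siRNA in blue and A20 siRNA in orange, replicate numbers above the points, and the mean ± SD (n = 4) as a black bar beside each group. NCOR1 lies at 37.2 to 39.4 CPM in the A20 siRNA samples, above all control siRNA samples, of which replicate 1 is the closest at 36.2 CPM, while the groups overlap for the other 4 genes.

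The scaffold NCOR1 was the member in which the groups separated. Its level was 36.2, 30.0, 28.4 and 28.5 CPM in control siRNA samples 1 to 4 and 37.3, 37.2, 37.8 and 39.4 CPM in A20 siRNA samples 1 to 4, from 673 to 1278 reads per sample. Each A20 siRNA sample was above each control siRNA sample, but control siRNA replicate 1 was much closer to the A20 siRNA samples than to the other controls. The means were 30.8 ± 3.67 and 37.9 ± 1.03 CPM (SD, n = 4 per group), a fold of 1.22 with a 95% interval of 1.13 to 1.32 (log2 fold change 0.29 ± 0.06 SE).

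Most of the spread of NCOR1 among the controls came from that library. Control siRNA replicate 1 was 0.32 higher on the log2 scale than the mean of the other 3 controls, a distance no smaller than that between the groups, and the coefficient of variation was 11.9% in control siRNA against 2.73% in A20 siRNA. Without this library the log2 fold change of NCOR1 was 0.38, and the lowest A20 siRNA sample was 1.24 times the highest remaining control. The difference missed the 0.05 threshold without control siRNA replicate 2, 3 or 4 (log2 fold change 0.27, 0.25 and 0.25) and without A20 siRNA replicate 3 or 4 (0.29 and 0.27).

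NCOR1 is among the longest tested genes, and levels followed gene length differently between the libraries. The rank correlation, across 13315 genes that are not independent replicates, between exonic length and a gene's deviation from its mean was -0.16, -0.11 and -0.20 in control siRNA replicates 2 to 4 and 0.08 in control siRNA replicate 1. It was 0.07, -0.08, 0.14 and 0.18 in A20 siRNA replicates 1 to 4, so that by this measure control siRNA replicate 1 lay among the A20 siRNA samples. After a correction of each library for exonic length the log2 fold change of NCOR1 was 0.26, and after one for length and GC content 0.25. The part of the remaining library differences in this value was not tested.

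The deacetylase HDAC3 differed little. Its level was 94.4, 99.2, 94.5 and 98.1 CPM in control siRNA samples 1 to 4 and 98.7, 100.1, 101.7 and 98.8 CPM in A20 siRNA samples 1 to 4. Every A20 siRNA sample was above the control siRNA sample of the same number, but the ranges overlapped, since control siRNA replicate 2 exceeded 2 of the A20 siRNA samples. The fold was 1.03 with a 95% interval of 0.999 to 1.07 (log2 fold change 0.05 ± 0.03 SE, n = 4 per group), so that folds above 1.07 lay outside this interval.

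The adaptors TBL1X and TBL1XR1 were close to level. TBL1X measured 70.1, 69.4, 72.8 and 69.5 CPM in control siRNA samples 1 to 4 and 68.2, 68.2, 70.6 and 69.3 CPM in A20 siRNA samples 1 to 4. TBL1XR1 measured 397, 392, 403 and 383 CPM in control siRNA and 386, 377, 402 and 402 CPM in A20 siRNA, in the same order. The ranges of both genes overlapped between the groups, although TBL1X was lower after A20 siRNA in all 4 same-numbered comparisons. The fold was 0.980 for TBL1X (95% interval 0.944 to 1.02) and 0.994 for TBL1XR1 (0.961 to 1.03), with coefficients of variation between 1.70% and 3.10% in the 4 sets of replicates. TBL1X is a long gene too, and its log2 fold change moved from -0.03 ± 0.03 (SE) to -0.07 ± 0.03 with the correction for length and GC content. TBL1X has a close relative elsewhere in the genome, and reads that match both equally are absent from counts of uniquely mapping reads.

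GPS2 was barely detected. It had 28, 26, 21 and 22 reads in control siRNA samples 1 to 4 and 37, 25, 11 and 24 reads in A20 siRNA samples 1 to 4. These counts correspond to 0.931, 1.02, 0.810 and 0.930 CPM and to 1.08, 0.895, 0.451 and 1.13 CPM. The lowest and the highest sample both came from the A20 siRNA group, whose coefficient of variation was 34.7%. The fold was 0.973 with a 95% interval of 0.711 to 1.33, so that both lower and higher levels after A20 siRNA lay within this interval.

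The low count of GPS2 stood beside a feature of the annotation. All 1176 bases of its canonical transcript, in 11 exons, lie inside exons of a read-through gene on the same strand, ENSG00000261915. Counting was done with STAR, whose gene counts leave out a read that overlaps more than a single gene on the strand considered, and the setting used is not given. The read-through gene is in the tables at 0 in all 8 samples. The shared part was 0% on the same strand for the canonical transcripts of the other 4 members, and at most 5.48% on either strand, for HDAC3. The counts of GPS2 are therefore uncertain as a measure of its RNA, in these 8 samples alike, and how many of its reads were left out was not tested. Pseudogene copies of parts of NCOR1 exist in the annotation as well, and a read that maps equally well to both is not a uniquely mapping read and was not counted.

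**Figure D2:**
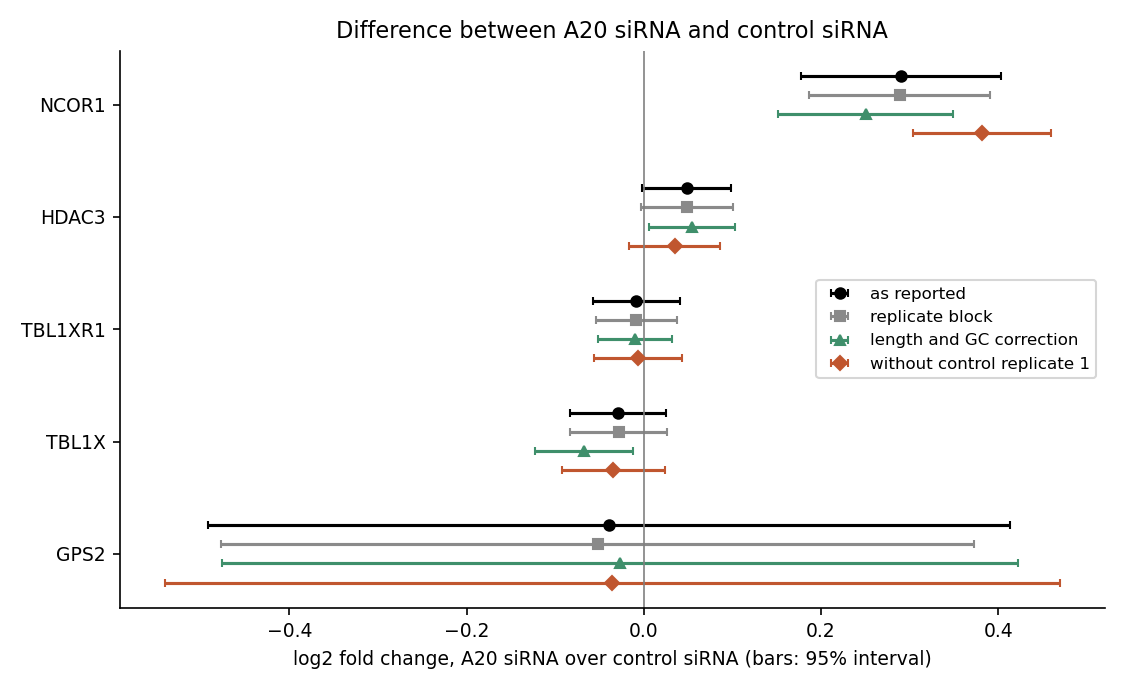
Log2 fold change of A20 siRNA over control siRNA (points) with its 95% interval (bars) for the 5 members, as reported (black circles), with the replicate number as a block (grey squares), after correction of each library for gene length and GC content (green triangles) and without control siRNA replicate 1 (orange diamonds). NCOR1 stays above 0 in all 4 fits, from 0.25 to 0.38, and the interval of GPS2 runs from -0.49 to 0.41 as reported.

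Levels of different genes were compared per kilobase of merged exons (RPKM from the TMM-scaled counts). Over the 8 samples TBL1XR1 was highest at a mean of 33.6 (range 32.2 to 34.5), followed by HDAC3 at 21.3 (20.5 to 22.1), TBL1X at 5.03 (4.92 to 5.25), NCOR1 at 2.20 (1.82 to 2.52) and GPS2 at 0.293 (0.146 to 0.365). The ranges of neighbours in this order did not overlap. TBL1XR1 ranked above 90.1% and HDAC3 above 83.2% of the tested genes in level per length, TBL1X above 49.5%, NCOR1 above 33.1% and GPS2 above 8.58%. The rank of GPS2 is uncertain, because reads it shares with the read-through gene may have been left out. The complex was thus unevenly represented, with the adaptor TBL1XR1 and the deacetylase far above the scaffold NCOR1 in RNA per length.

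The order depended on the length used. Per kilobase of the longest transcript HDAC3 came first at 50.3 (48.4 to 52.1) and TBL1XR1 second at 48.0 (46.1 to 49.3), with overlapping ranges, while TBL1X (9.88), NCOR1 (3.11) and GPS2 (0.458) kept their places. Which isoforms were present is not known from gene counts, so the order of HDAC3 and TBL1XR1 is not settled. The place of GPS2 is not settled either, given its shared exons.

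**Figure D3:**
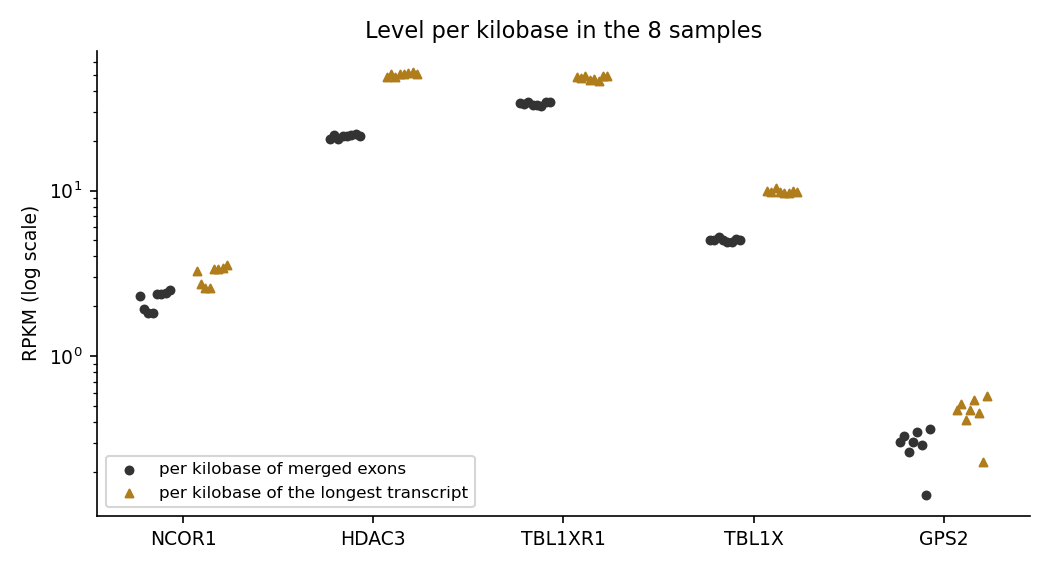
Level per kilobase (RPKM, log axis) of the 5 members in each of the 8 samples, per kilobase of merged exons (black circles) and per kilobase of the longest transcript (yellow triangles). TBL1XR1 and HDAC3 lie above 20 on both scales, NCOR1 between 1.82 and 3.57, and GPS2 below 0.6 throughout. The level of GPS2 is uncertain, since its exons are shared with a read-through gene.

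A ratio of genes within a library removes the scaling between libraries, and the balance between the adaptors varied little. TBL1XR1 was 6.62 ± 0.09 times TBL1X per length in control siRNA and 6.72 ± 0.13 times in A20 siRNA (SD, n = 4 per group), within 6.53 to 6.87 over all 8 samples. Per longest transcript the ratio ran from 4.76 to 5.01. In contrast, the ratios to NCOR1 moved with that gene. HDAC3 was 10.75 ± 1.29 times NCOR1 per length in control siRNA (8.85 to 11.7) and 8.93 ± 0.30 times in A20 siRNA (8.50 to 9.13), with overlap through 1 control. TBL1XR1 was 17.25 ± 1.83 times NCOR1 in control siRNA (14.7 to 18.9) and 13.8 ± 0.29 times in A20 siRNA (13.6 to 14.2), without overlap.

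The profiles of the members over the 8 samples were compared by the root mean square difference of their log2 CPM values, each gene centred on its own mean. TBL1X and TBL1XR1 were alike to 0.023, and HDAC3 lay 0.056 from each of them. NCOR1 lay 0.17 to 0.20 from these 3 genes, close to its median distance of 0.20 to all tested genes. GPS2 lay at least 0.36 from every other member, beside a spread of its own profile of 0.35.

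The 5 tested genes closest to NCOR1 were NINL (distance 0.037), PPP1R12B (0.044), NKTR (0.049), AKAP12 (0.049) and CFAP54 (0.050). NINL encodes a ninein-like centrosomal protein, PPP1R12B a regulatory subunit of myosin phosphatase, NKTR a cyclophilin-related protein of natural killer cells, AKAP12 an anchor of protein kinase A and CFAP54 a cilia- and flagella-associated protein. All had long exonic sequence, from 8.78 kb for AKAP12 to 21.1 kb for PPP1R12B, and in all of them control siRNA replicate 1 was the highest control, for example 12.97 CPM for PPP1R12B against 10.06 to 10.3 CPM in the other controls. Their log2 fold changes ran from 0.23 for AKAP12 to 0.29 for NINL. These genes were picked for their likeness over the same samples, so their differences follow from the choice.

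**Figure D4:**
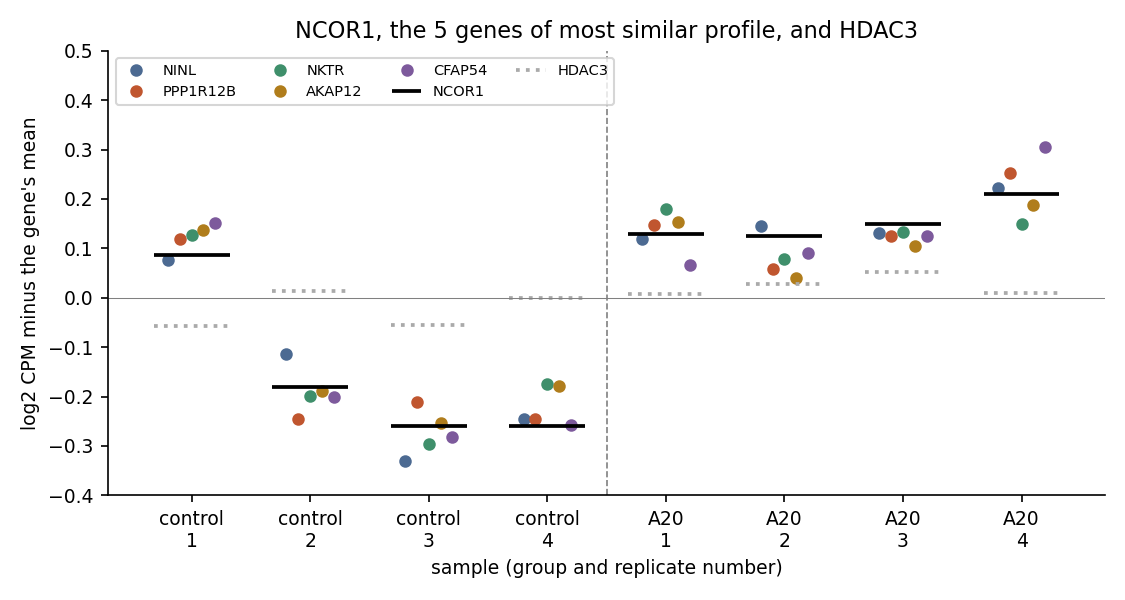
Log2 CPM minus the gene's mean over the 8 samples (vertical axis) for each sample (horizontal axis), with NCOR1 as black bars, the 5 genes of most similar profile as coloured points and HDAC3 as dotted grey bars. NCOR1 and the 5 genes are high in control siRNA replicate 1 and in all A20 siRNA samples and low in control siRNA replicates 2 to 4, whereas HDAC3 stays close to 0.

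The closest genes to the other members were RPUSD3 and GSS for HDAC3 (0.012 and 0.015), DEK and PHLDA1 for TBL1X (both 0.013), ATG13 and PRRC1 for TBL1XR1 (0.0083 and 0.011) and KLC3 and LOXL1 for GPS2 (0.10 and 0.14). HDAC3, TBL1X and TBL1XR1 were nearly flat, with a root mean square deviation of 0.035, 0.029 and 0.034 from their own means, so that likeness to them mostly describes flatness. When profiles were centred on the group means in place of the overall mean, the closest genes changed for each member, with 0 of 5 shared for NCOR1, 0 of 2 for HDAC3 and TBL1X, and 1 of 2 for TBL1XR1 and GPS2.

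Around the 5 members, 9 lists of associated genes were described, with 122 genes in the tables and 111 tested. None passed the threshold in either direction by edgeR, and 16 had an unadjusted p under 0.05, which is 14.4% of them against 16.2% of all tested genes. DESeq2 called 1 of them, NCOA6, while limma-voom, RLE scaling and a minimum of 10 counts in each sample called 0. Without the filter 4 were called (EP300, NCOA6, PPARA and VDR). The length correction called 2 (HDAC8, lower, and VDR), and length and GC content 3 (CRY1, HDAC8, lower, and VDR). The fit with the replicate number as a block called 3 (NCOA6, PPARA and VDR). With length and GC content as well it called 5 (CRY1, NCOA6 and VDR, and, lower, CSNK2A1 and HDAC8). As reported, the log2 fold change of CSNK2A1 was 0.0042. Those nearest the threshold, chosen after their values were seen, were the vitamin D receptor VDR (log2 fold change 0.22, adjusted p = 0.053), the coactivator NCOA6 (0.11, adjusted p = 0.053) and the fatty acid sensor PPARA (0.14, adjusted p = 0.059, all edgeR). Without control siRNA replicate 1, 5 passed it, namely CRY1, EP300, NCOA6, PPARA and VDR. Without A20 siRNA replicate 1, 1 passed it (CDK2AP1), and with any other sample left out 0 did.

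Both accessory subunits described were tested. The demethylase KDM4A was at 50.1 ± 0.23 CPM in control siRNA and 48.2 ± 1.03 CPM in A20 siRNA (log2 fold change -0.06 ± 0.03 SE), and its groups did not overlap. CORO2A, a coronin found with the complex, was at 10.52 ± 0.66 and 10.67 ± 0.43 CPM (log2 fold change 0.02 ± 0.06 SE). Of the 10 other histone deacetylases tested, 5 had a positive and 5 a negative value (median -0.0057). HDAC1 (212.8 ± 4.01 and 209.7 ± 3.47 CPM) and HDAC2 (189.8 ± 4.61 and 184.5 ± 3.06 CPM), the catalytic subunits of the SIN3, NuRD and CoREST complexes, were the highest of them per length. HDAC1 per length was 2.56 ± 0.03 times HDAC3 in control siRNA (2.54 to 2.60) and 2.44 ± 0.05 times in A20 siRNA (2.39 to 2.49). HDAC2 was 0.591 ± 0.02 (0.578 to 0.619) and 0.556 ± 0.009 (0.546 to 0.568) times HDAC3, so that HDAC3 lay between them. HDAC8 was 0.0647 to 0.0717 times HDAC3 in control siRNA and 0.0601 to 0.0635 times in A20 siRNA. None of these ratios to HDAC3 overlapped between the groups, so separate ratios were not particular to NCOR1.

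Of 26 factors that recruit the complex to DNA 21 were tested, with 8 positive and 13 negative values (median -0.01). The highest per length were RBPJ, the DNA-binding factor of Notch signaling, at 369 ± 6.40 and 364.7 ± 8.89 CPM, and the orphan receptor NR2F6 at 63.5 ± 1.35 and 61.1 ± 1.34 CPM. The receptors THRB and PPARG and the repressor ZBTB16 were listed at 0 in all samples. Of 10 regulators of the complex 9 were tested (5 positive, 4 negative, median 0.0042), and CSNK2B, which encodes the regulatory subunit of casein kinase II, was listed at 0. CSNK2A1, of the same kinase, was at 408.6 ± 4.14 and 409.9 ± 5.32 CPM. Whether the 0 of CSNK2B reflects its RNA or the way reads were counted was not tested. The highest of them were CTNNB1, which encodes beta-catenin, at 565.5 ± 6.78 and 553.3 ± 4.84 CPM, and the ubiquitin-conjugating enzyme UBE2D3 at 456.3 ± 12.9 and 447.5 ± 1.96 CPM.

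Genes known as targets that the complex keeps repressed showed no common direction, with 13 positive and 8 negative values among 21 tested of 24 (median 0.02). ANGPTL4, an inhibitor of lipoprotein lipase, was at 82.9 ± 3.27 and 81.1 ± 1.14 CPM, and CPT1A, the carnitine palmitoyltransferase of mitochondrial fatty acid uptake, at 97.4 ± 3.77 and 97.4 ± 1.94 CPM. Their log2 fold changes were -0.03 and -0.0012. The median was 0.0049 in the SIN3 complex (16 tested), -0.0045 in NuRD (10), -0.0081 in CoREST (9) and 0.03 among coactivators (13). The highest of these per length were SAP18 and RBBP4 for SIN3, MTA2 and CHD4 for NuRD, RCOR1 and KDM1A for CoREST, and NCOA4 and PRMT1 for the coactivators, with log2 fold changes between -0.05 (RBBP4) and 0.02 (RCOR1). Over all lists, groups did not overlap for KDM4A, HDAC8 and RBBP4, lower after A20 siRNA. Higher without overlap were the targets KLF9, HES4 and CRY1, and elsewhere PPARA, VDR, CHUK, SIN3B, NCOA3 and NCOA6. Of all tested genes, 3.71% lay above and 3.9% below without overlap.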

How the data were processed

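RNAseq had been done on 8 samples of RKO cells, with groups and replicate numbers as GEO's labels give them. The authors trimmed reads with Trimmomatic, mapped them to GRCh38.p7 with STAR and deposited raw counts, without normalization, of uniquely mapping reads per gene. The GENCODE release and the strand setting are not given in the sources used here. From these counts, edgeR 4.0.16 (R 4.3.3) kept genes by filterByExpr (minimum count 10), computed TMM factors and ran its quasi-likelihood test at an adjusted (Benjamini-Hochberg) threshold of 0.05. Each standard error is the log2 fold change over the root of F, and 95% intervals are normal. Levels are CPM, and RPKM where genes were compared. Profiles used log2 CPM with a prior count of 2.

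Symbols and lengths came from GENCODE 44, matched for 56948 of 57992 genes, which gave a length for 99.3% of those tested. The members and the gene lists were chosen with earlier results of these data known, and no list was tested as a set. A gene of 1 list is not reported here. Named genes were the members, TNFAIP3, the genes past the threshold and the 2 of highest level per length in each list, and the 5 (NCOR1) or 2 (other members) of closest profile. Alternatives were RLE scaling, no filter, a minimum of 10 counts in each sample, limma-voom (limma 3.58.1), DESeq2 1.42.0, the replicate number as a block, loess corrections for length and GC content (span 0.5), and each sample left out. Total counts were 21226451 to 34194273 per sample. Replicates differed by more than sampling noise, with a chi-square per degree of freedom of 1.32 to 3.67 in all pairs. The labels do not say whether they came from separate cultures, so p-values measure the spread between these samples, which may be technical.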

Additional observations from a re-analysis of the deposited data

Results flagged for a closer look

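In 37 genes, 74 groups of 4 samples were searched for a sample far from the others, by the gap to its nearest neighbour over the group's whole range (Dixon's ratio, at its 95% critical value). Chance flags about 1 in 20 groups, which is 3.7 here, and 5 were found. None was a member of the complex. The NCOR1 controls came near the limit with a value of 0.793 for control siRNA replicate 1.

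Control siRNA replicate 1 was the highest control for both PPP1R12B (0.918, at 12.97 CPM against 10.06 to 10.3) and CFAP54 (0.834, at 7.22 CPM against 5.32 to 5.64), which were named for their likeness to NCOR1. Control siRNA replicate 3 was the highest for PHLDA1 (0.837, at 586.9 CPM against 560.7 to 564.9). In the A20 siRNA group, replicate 2 was the lowest for TNFAIP3 (0.847, at 3.01 CPM against 3.40 to 3.47) and the highest for CTNNB1 (0.947, at 560.6 CPM against 550.6 to 551.1).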

How the results depend on the processing

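NCOR1 was higher after A20 siRNA in every alternative. Its log2 fold change ran from 0.25 to 0.29 over 9 other settings and from 0.25 to 0.38 with each sample left out, where it missed the threshold in 5 of 8. TNFAIP3 stayed lower and past the threshold (-0.77 to -0.67 with each sample left out). HDAC3 (0.03 to 0.06) and TBL1X (-0.04 to -0.01) kept their direction with each sample left out, and over the 9 other settings TBL1X ran down to -0.067 and TBL1XR1 to -0.034, both with a length correction. With each sample left out TBL1XR1 ran from -0.023 to 0.0074 and GPS2 from -0.18 to 0.16. DESeq2 gave no adjusted p for GPS2 and TNFAIP3, and they are left out there.

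The 85 genes higher and 82 lower became 314 and 310 without a filter, and 6 to 567 and 6 to 430 with each sample left out, most without control siRNA replicate 1. The lower genes numbered 137 with the length correction and 137 with length and GC content. With the replicate number as a block there were 262 higher and 212 lower, and with the block and the correction for length and GC content 229 and 238. The deviations of same-numbered samples correlated at 0.084, 0.034, 0.035 and -0.0098, with no different-numbered samples set beside them. These values do not settle whether the numbers pair the samples, and the labels do not say. The block left each member on its side of the threshold. The cause of these changes was not tested.

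Values near 0 changed sign elsewhere: MTA2 with length and GC content (0.00094) and with the block and that correction together (0.0012), DEK with length and GC content (0.00014), and PRRC1 with RLE (-9.7e-05), no filter (-0.0020) and the length correction (-0.012). With each sample left out the ranges were -0.012 to 0.047 for CORO2A, -0.023 to 0.016 for CPT1A, -0.023 to 0.0057 for MTA2, -0.024 to 0.0068 for CHD4, -0.036 to 0.0094 for PRMT1, -0.022 to 0.0014 for PHLDA1, -0.022 to 0.0071 for ATG13, -0.012 to 0.019 for PRRC1, -0.28 to 0.019 for KLC3 and -0.16 to 0.075 for LOXL1. Outside the members, TNFAIP3 and the counts over all genes, 921 pairs of a result and a setting kept their side or value. A further 26 moved, 30 changed sign, 12 newly passed the threshold and 7 no longer passed it. Among the genes most like NCOR1, NKTR passed it as reported but not with DESeq2. PPP1R12B and AKAP12 passed it with the replicate number as a block but not as reported. GPS2 rested on 11 to 37 reads per sample, and how many of its reads the counting left out was not tested.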
